A study of Rattus norvegicus with 6 samples.

Results

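The 9 genes of immediate-early transcription factors described here were followed in rat aortic smooth muscle cells: the Fos-family genes Fos, Fosb, Fosl1 and Fosl2, the Jun-family genes Jun, Junb and Jund, and the genes Egr1 and Myc. Members were taken by symbol from the count table, and all 9 were found among its 22574 gene symbols. All 9 also passed the filter on low counts, which left 12591 genes to test. The cells (RASMCs) were primary cultures from the aorta of male Sprague-Dawley rats. The CitH3+dsDNA group (3 libraries) received citrullinated histone H3 together with double-stranded DNA, the main components of extracellular traps, and the control group (3 libraries) received bovine serum albumin. Replicates were wells plated with cells of the same rat, per the study's reporting summary, so p-values measure the spread between wells and library preparations and not between animals. The time between treatment and RNA extraction is not given in the sources used here.

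Immediate-early genes are transcribed without new protein synthesis when a growth factor, cytokine or stress signal reaches a resting cell, and the transcripts of Fos and Egr1 in particular are known to appear and decay quickly. Fos-family proteins pair with Jun-family proteins through a leucine zipper to form AP-1, while Jun-family proteins can also pair among themselves. Egr1 is a zinc-finger factor, and Myc pairs with Max. In vascular smooth muscle these factors are known from the response to injury and to growth factors, where they act on genes of migration, matrix breakdown and cell division.

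The libraries held between 17573905 and 18742395 counts. Control 3 stood apart from the other controls, with a chi-square per gene of 6.92 against control 1 and 5.41 against control 2, where controls 1 and 2 gave 3.32 and pairs of CitH3+dsDNA libraries 3.42 to 4.69. Without it 357 genes were called in place of 277, and values of Fosl1, Junb, Myc and Fos without it are given beside their results. Expression is given as CPM, counts scaled to library size after TMM (a scaling that takes most genes to be equal between libraries). Of 8 smooth muscle markers, all tested, 4 fell and 1 rose, with log2 fold changes from -1.57 to 1.09 over the 8. Acta2 (smooth muscle actin) was named after its values were seen. It stood at 3115 ± 292 CPM in the CitH3+dsDNA group and 5025 ± 300.1 CPM in controls (SD, n = 3 each). Of 8 macrophage, 7 endothelial and 5 fibroblast markers, 5, 4 and 2 passed the filter on low counts. Among those tested edgeR called 0, with 0 unadjusted p-values under 0.05.

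Of the 9 factors, 0 were called as different between the groups, that is, with a Benjamini-Hochberg adjusted p-value under 0.05 over all 12591 genes in the quasi-likelihood test of edgeR. Over all genes tested, 2.20% were called, 1.94% as higher and 0.262% as lower in the CitH3+dsDNA group. One member, Fosl1, had an unadjusted p-value under 0.05, against 13.9% of all genes tested. DESeq2 gave 0 calls and 0 unadjusted p-values under 0.05 among the 9, and limma-voom gave 0 calls and 1 unadjusted p-value under 0.05. In no member did the 3 CitH3+dsDNA libraries lie on one side of the 3 controls, a separation seen in 19.1% of all genes tested. Log2 fold changes (CitH3+dsDNA minus control) ran from -0.17 to 0.07, with 4 positive and 5 negative and a median of -0.00062, beside a median of -0.0013 over all genes tested. The median size of the difference without its sign was 0.053 for the members and 0.076 for all genes tested. Without control 3, 1 member was positive and 8 were negative, with a median of -0.043, beside -0.00075 over all genes tested. Without CitH3+dsDNA replicate 1, 2 were positive and 7 negative, with a median of -0.061, beside -0.0032. In the other alternative fits 4 or 5 were positive. As these are bulk cultures, fewer cells of a kind and less RNA per cell cannot be told apart.

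A p-value above the threshold does not show equal expression, so the 95% interval of each log2 fold change was read from the same fit. For 8 of them, all but Fos, it lay inside -0.5 to 0.5. That of Fos was wider, and a doubling of Fos is not left out under every alternative, since its log2 fold change was 0.061 with an SE of 0.58 in DESeq2 and 0.31 with an SE of 0.46 in edgeR without control 1. The interval of 8 factors held 0, and that of Fosl1 ended just below it.

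**Figure D1:**
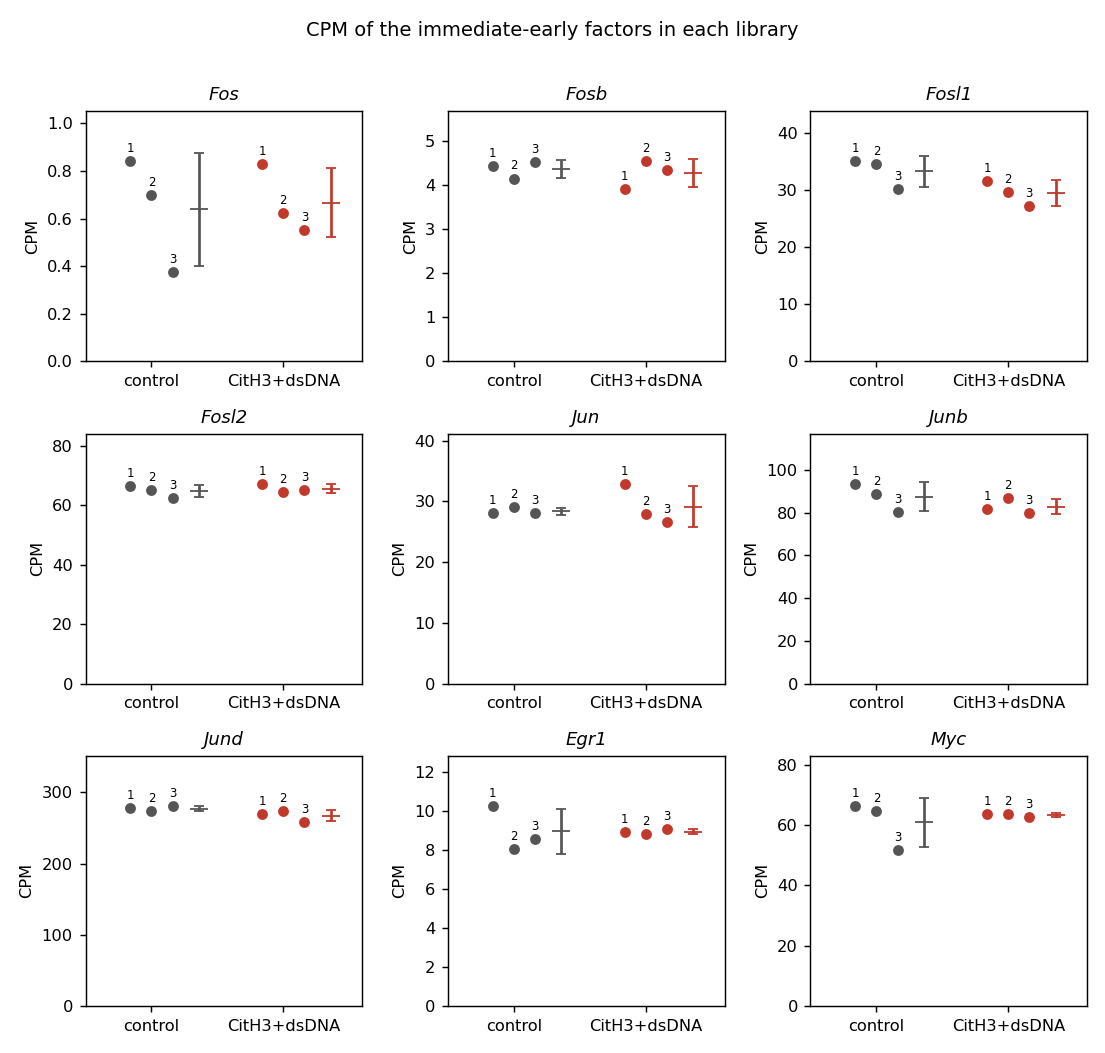
Expression of the 9 factors in each library, in CPM after TMM scaling (vertical axis of each panel, starting at 0), with the replicate number above each point and the mean with its SD at the right of each group. The CitH3+dsDNA and control points overlap in all 9 panels.

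Among the Fos-family genes, Fosl2, which encodes Fra-2, had counts of 1220, 1133 and 1181 in the CitH3+dsDNA libraries and of 1186, 1208 and 1159 in controls. The groups overlapped almost entirely, at 65.5 ± 1.55 CPM (SD, n = 3) against 64.7 ± 2.04 CPM (SD, n = 3). Its log2 fold change was 0.020 (SE 0.044, 95% interval -0.075 to 0.11, edgeR adjusted p = 0.884), so the interval covered changes from -5.06% to 8.25%.

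Fosl1 encodes Fra-1, a Fos protein that lacks the transactivation domain of Fos and is itself a target of AP-1. Its counts were 573, 521 and 492 after CitH3+dsDNA and 624, 640 and 559 in controls, or 29.4 ± 2.25 CPM (SD, n = 3) against 33.2 ± 2.67 CPM (SD, n = 3). Controls 1 and 2 lay above every CitH3+dsDNA library, whereas control 3 was below CitH3+dsDNA replicate 1. Its log2 fold change of -0.17 (SE 0.077, 95% interval -0.34 to -0.0059) had an unadjusted p-value of 0.0436 and an adjusted p-value of 0.338 in edgeR. Without control 3 it was -0.24 (edgeR adjusted p = 0.132), the lowest adjusted p of any factor under the 15 alternatives, over which that of Fosl1 ran from 0.132 to 0.633.

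Fosb, the gene of FosB and of its truncated form, had 71, 80 and 79 counts against 79, 77 and 84 in controls. After scaling, the lowest and the highest library were both from the CitH3+dsDNA group, and the log2 fold change was -0.033 (SE 0.15, 95% interval -0.37 to 0.30, edgeR adjusted p = 0.952). Fos itself was close to the limit of the filter, with 15, 11 and 10 counts after CitH3+dsDNA and 15, 13 and 7 in controls. In CPM the means were 0.667 ± 0.143 after CitH3+dsDNA and 0.639 ± 0.238 in controls (SD, n = 3 each), and the highest CitH3+dsDNA and the highest control library had the same count. For Fos the log2 fold change was 0.066 (SE 0.39, edgeR adjusted p = 0.963), with an interval of -0.77 to 0.91 that corresponds to changes between -41.5% and 87.3%. The counts do not tell changes within that interval apart, and without control 3 the log2 fold change of Fos was -0.21.

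Among the Jun-family genes, Jund, whose protein is the Jun factor known for steady expression in resting cells, had 4890, 4822 and 4701 counts after CitH3+dsDNA and 4954, 5076 and 5219 in controls. The groups overlapped only narrowly after scaling, as CitH3+dsDNA replicate 2 and control 2 were both at 274 CPM. Jund had the smallest error of the 9 factors, with a log2 fold change of -0.053 (SE 0.034, 95% interval -0.13 to 0.022, edgeR adjusted p = 0.535), or -3.61% with an interval from -8.49% to 1.52%.

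Junb, often an antagonist of Jun in cell growth, had 1482, 1530 and 1453 counts against 1671, 1646 and 1492 in controls. Controls 1 and 2 were above all CitH3+dsDNA libraries and control 3 was among them, the same arrangement as for Fosl1. Its log2 fold change was -0.080 (SE 0.056, 95% interval -0.20 to 0.043, edgeR adjusted p = 0.579), and -0.14 without control 3 (edgeR adjusted p = 0.198, in a range of 0.198 to 0.894 over the 15 alternatives).

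Jun, which activates its own promoter, had counts of 597, 491 and 483 after CitH3+dsDNA and of 502, 539 and 520 in controls. CitH3+dsDNA replicate 1 was the highest of all 6 libraries and the other 2 of its group were the lowest. Jun's log2 fold change of 0.037 (SE 0.079, 95% interval -0.14 to 0.21, edgeR adjusted p = 0.880) became -0.062 without that library.

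Egr1 had 162, 155 and 165 counts in the CitH3+dsDNA libraries and 183, 149 and 159 in controls. Means were 8.94 ± 0.147 CPM (SD, n = 3) and 8.95 ± 1.16 CPM (SD, n = 3), and both the highest and the lowest library were controls. The log2 fold change was -0.00062 (SE 0.12, 95% interval -0.25 to 0.25, edgeR adjusted p = 0.999), the smallest of the 9.

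Myc had 1153, 1126 and 1141 counts after CitH3+dsDNA and 1186, 1204 and 960 in controls, so that control 3 alone lay below the other 5 libraries. Means were 63.4 ± 0.535 CPM (SD, n = 3) and 61.0 ± 8.09 CPM (SD, n = 3). For Myc, the log2 fold change of 0.057 (SE 0.076, 95% interval -0.11 to 0.22, edgeR adjusted p = 0.795) was -0.050 without control 3.

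**Figure D2:**
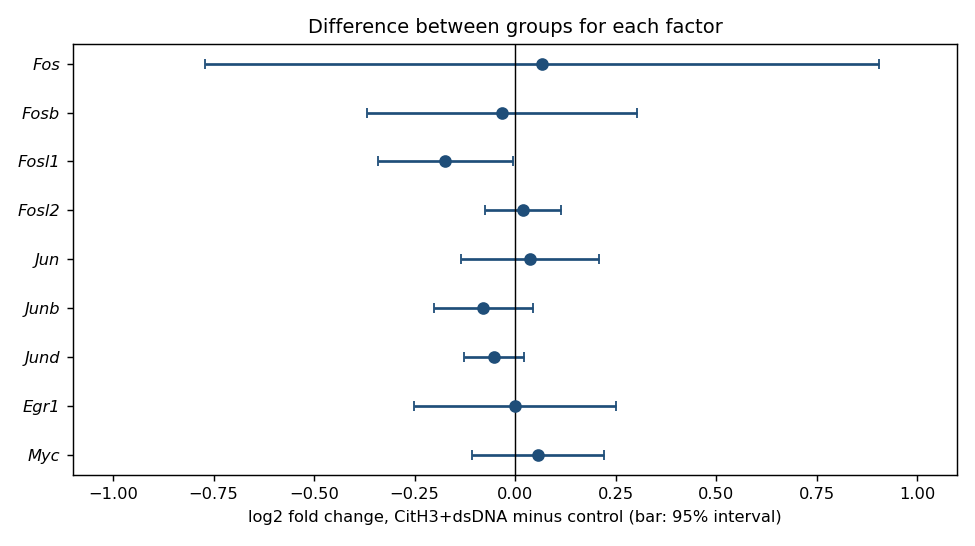
Log2 fold change of each factor, CitH3+dsDNA minus control (horizontal axis), with its 95% interval from the edgeR fit as a bar. The points lie between -0.17 and 0.07, and the widest bar, from -0.77 to 0.91, is that of Fos.

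The spread between replicate libraries differed among the factors. In controls the coefficient of variation of CPM was 13.3% for Myc and 13.0% for Egr1, against 0.844% and 1.64% in the CitH3+dsDNA group. Counting error alone would give 2.96% for Myc and 7.89% for Egr1 in the CitH3+dsDNA libraries, so both were closer together there than counting error. Without control 3 the spread of Myc in controls was 1.69%, and without control 1 that of Egr1 was 4.58%. Jun was the other way round, with 11.5% after CitH3+dsDNA and 1.99% in controls, where counting error was 4.37% and 4.38%, and without CitH3+dsDNA replicate 1 its spread was 3.26%. Fosl1 varied by 7.66% and 8.05%, above its counting error of 4.35% and 4.06%, and in controls by 0.964% without control 3. Leaving out the outermost of 3 libraries lowers the spread of any gene, so these drops do not single out a library. Counting error for Fos was 28.9% and 29.3%, close to its measured spread of 21.5% and 37.2%.

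The make-up of the AP-1 gene pool was described as each member's share of its family's counts in a library. Shares are shares of reads, uncorrected for transcript length, and are compared here only between libraries. Fosl2 made up 65.6 ± 1.21% (SD, n = 3) of Fos-family counts after CitH3+dsDNA and 62.9 ± 1.01% (SD, n = 3) in controls, and the groups did not overlap. Fosl1 made up 29.4 ± 1.34% and 32.2 ± 1.16% (SD, n = 3 each). Its share was 30.5%, 29.9% and 27.9% in the CitH3+dsDNA libraries and 32.8%, 33.0% and 30.9% in controls. These groups did not overlap, with a gap of less than 1 percentage point between the nearest libraries. Fosl1 and Fosl2 hold most of the family's counts, so a lower share of 1 raises that of the other, and these are not 2 separate results. In CPM the groups of both genes overlapped, and groups lay apart in 19.1% of all genes tested. That percentage is for single genes in CPM and not for shares of a family. Shares of Fosb (4.28% and 4.26%) and Fos (0.665% and 0.615%) overlapped. In the Jun family, Jund held 70.5% of the counts in both groups, Junb 21.8 ± 0.548% and 22.2 ± 1.45%, and Jun 7.67 ± 0.775% and 7.22 ± 0.191% (SD, n = 3 each).

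Summed over the 3 Jun-family genes, expression was 384, 388 and 366 CPM after CitH3+dsDNA and 399, 391 and 390 CPM in controls. The groups did not overlap, although the nearest libraries were 388 and 390 CPM and each of the 3 genes overlapped by itself. Among all genes tested, 19.1% had groups that did not overlap, a figure for single genes and not for sums. Summed over the 4 Fos-family genes it was 99.9 ± 3.37 CPM (SD, n = 3) and 103 ± 4.80 CPM (SD, n = 3), with overlap. These sums and shares are given without a test, and with 3 libraries against 3 an exact permutation test, two-sided, can give no p-value under 0.1.

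**Figure D3:**
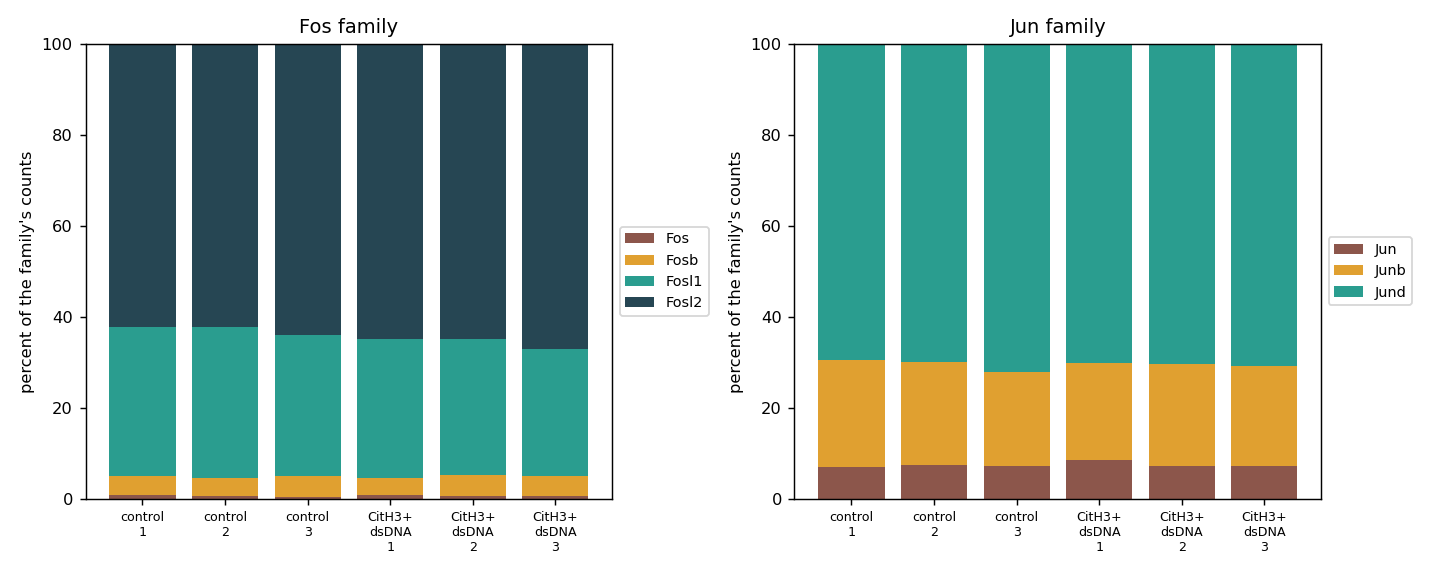
Share of each gene in the counts of the Fos family (left) and of the Jun family (right), in percent of the family's counts on the vertical axis, for the 3 control and the 3 CitH3+dsDNA libraries. Fosl1 takes 27.9% to 30.5% of Fos-family counts in the CitH3+dsDNA libraries and 30.9% to 33.0% in controls, and Jund takes about the same share of Jun-family counts throughout.

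Over the 6 libraries, only Fos spanned at least 0.5 in log2 CPM (0.96, highest in control 1 and lowest in control 3). Among 11908 genes with a mean of at least 1 CPM, the 3 with the closest profiles, by the root mean square difference of log2 CPM values centred on each gene's mean over the 6 libraries, were LOC102549506 (0.090), LOC108348120 (0.095) and Il1a (0.12), the gene of interleukin-1 alpha. All 3 had their lowest count in control 3. Il1a had 69, 52 and 57 counts after CitH3+dsDNA and 72, 70 and 45 in controls, with a log2 fold change of -0.046 (edgeR adjusted p = 0.953). The profile of Fos itself rests on 7 to 15 counts per library.

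The promoters of 6 members are held by the RefSeq-derived promoter table of the rat assembly GRCr8, and those of Fos, Jun and Myc were not analysed here. Each entry covers 250 bases before the gene's start and 50 after it. The CRE, TGACGTCA, which is bound by CREB and by Jun dimers with ATF2, was present in Jund alone of the 6 and in 1.83% of 33469 promoters, searched on both strands. The site of Egr-family factors, GCGTGGGCG, was also present in Jund alone and in 0.544% of promoters. The CArG box of serum response factor, found in 1.64% of promoters, occurred in Egr1 alone of the 6, as CCATATTAGG beginning 105 bases before the start and as CCATATATGG beginning 83 bases before it. TATAAA was present in 14.2% of promoters and in Junb, beginning 49 bases before the start. Fosb held it only on the opposite strand, as TTTATA beginning 180 bases before the start. The TGACATCA element and the AP-1 site TGACTCA were in none of the 6, and in 4.34% and 4.63% of promoters. An NF-kB site was matched in Jund, in the 50 bases after its start, and in 7.51% of promoters. None of these matches shares bases with another.

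The Jund promoter is shown because it held both the CRE and the Egr site, from 241 to 48 bases before the start, on the minus strand at chr16:18769819-18770012 of GRCr8, with the CRE and the Egr site in capitals.
Jund: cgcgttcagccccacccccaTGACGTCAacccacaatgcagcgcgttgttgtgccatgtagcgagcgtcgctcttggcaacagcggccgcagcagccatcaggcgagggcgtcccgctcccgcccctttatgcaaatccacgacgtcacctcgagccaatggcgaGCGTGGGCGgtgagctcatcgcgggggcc
Jund, whose log2 fold change was -0.053, was not called. A match describes the letters in the window and not the binding of a factor.

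The neighbourhood of these factors was read from 9 lists of pathway genes. The lists held 197 genes apart from the members, of which 176 were tested and 9 were called, all higher in the CitH3+dsDNA group. That is 5.11% of those tested, beside the 2.20% of all genes given above. As the lists were drawn up with earlier results of these data known, no conclusion is drawn from the higher share. DESeq2 and limma-voom gave each of the 9 lists the same number of calls as edgeR.

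Among 20 AP-1 partners and related bZIP factors, 16 were tested and 1 rose. Atf4, the bZIP factor of the integrated stress response, had 21234, 21230 and 22300 counts after CitH3+dsDNA and 11450, 12321 and 13345 in controls. All CitH3+dsDNA libraries were far above all controls, with a log2 fold change of 0.83 (SE 0.042, edgeR adjusted p = 2.39e-08). The most abundant genes of the list that were not called were Atf5 (log2 fold change -0.014), Atf6 (0.077) and Mafg (0.055). The median of the list was 0.026. Of the 5 genes of the Egr family and its co-repressors, 4 were tested and 0 were called in edgeR, with 1 unadjusted p-value under 0.05 and a median log2 fold change of -0.13. Egr2 had 2.71 ± 0.258 CPM (SD, n = 3) against 3.15 ± 0.255 CPM (SD, n = 3), and Nab1 and Nab2, which bind Egr1 and repress it, had log2 fold changes of 0.086 and -0.091. Of the 12 genes of the Myc network, 9 were tested and 0 were called in edgeR, with 2 unadjusted p-values under 0.05 and a median of 0.019. Max, the obligate partner of Myc, had 96.4 ± 2.66 CPM (SD, n = 3) after CitH3+dsDNA and 95.1 ± 3.06 CPM (SD, n = 3) in controls. Mxd4, a Max-binding repressor, had a log2 fold change of -0.034, and Mlx, a partner of the glucose-sensing factors, had -0.040.

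Among 37 other immediate-early genes, all tested, 2 rose and 0 fell, and the median was -0.033. Klf4, a zinc-finger factor known for repressing contractile genes in smooth muscle, had 137, 110 and 141 counts after CitH3+dsDNA and 34, 45 and 43 in controls. Its log2 fold change was 1.70 (SE 0.17, edgeR adjusted p = 3.69e-05). Nr4a3, an orphan nuclear receptor, had 60, 67 and 66 counts against 23, 22 and 21, with a log2 fold change of 1.58 (SE 0.21, edgeR adjusted p = 0.000647). For both of these genes, every CitH3+dsDNA library exceeded every control. The rest were not called, among them the abundant growth-factor-induced matrix genes Ctgf (log2 fold change -0.023) and Cyr61 (-0.076) and the small GTPase gene Rhob (-0.027).

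Upstream of the factors lie MAP kinases, which phosphorylate Jun and the ternary complex factors, and serum response factor, which drives Fos and Egr1. Of 37 genes of this relay 31 were tested, 2 rose and 0 fell, and the median was -0.0076. Map2k4, the kinase that activates JNK and p38, had 434, 420 and 456 counts after CitH3+dsDNA and 223, 232 and 212 in controls, and its log2 fold change was 1.0 (SE 0.073, edgeR adjusted p = 1.27e-06). The groups lay far apart. Braf, which activates the ERK branch, had 480, 455 and 552 counts against 356, 405 and 394, a log2 fold change of 0.39 (SE 0.078, edgeR adjusted p = 0.0167). Its call was lost without CitH3+dsDNA replicate 3 (edgeR adjusted p = 0.0709) and without control 1 (edgeR adjusted p = 0.0902), and the range of adjusted p over 15 alternatives was 0.00362 to 0.0902. Mapk3, which encodes ERK1, had a log2 fold change of -0.033, Mapkapk2, a kinase downstream of p38, had -0.049, and Map2k2, which activates ERK, had -0.072. Of 18 dual-specificity phosphatases and Sprouty genes, which are induced by these kinases and feed back on them, 15 were tested and 0 were called in edgeR, with 1 unadjusted p-value under 0.05 and a median of 0.054. Dusp1, itself an immediate-early gene, had 172 ± 5.49 CPM (SD, n = 3) after CitH3+dsDNA and 173 ± 8.66 CPM (SD, n = 3) in controls. Dusp6 and Dusp7 had log2 fold changes of 0.087 and 0.058.

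**Figure D4:**
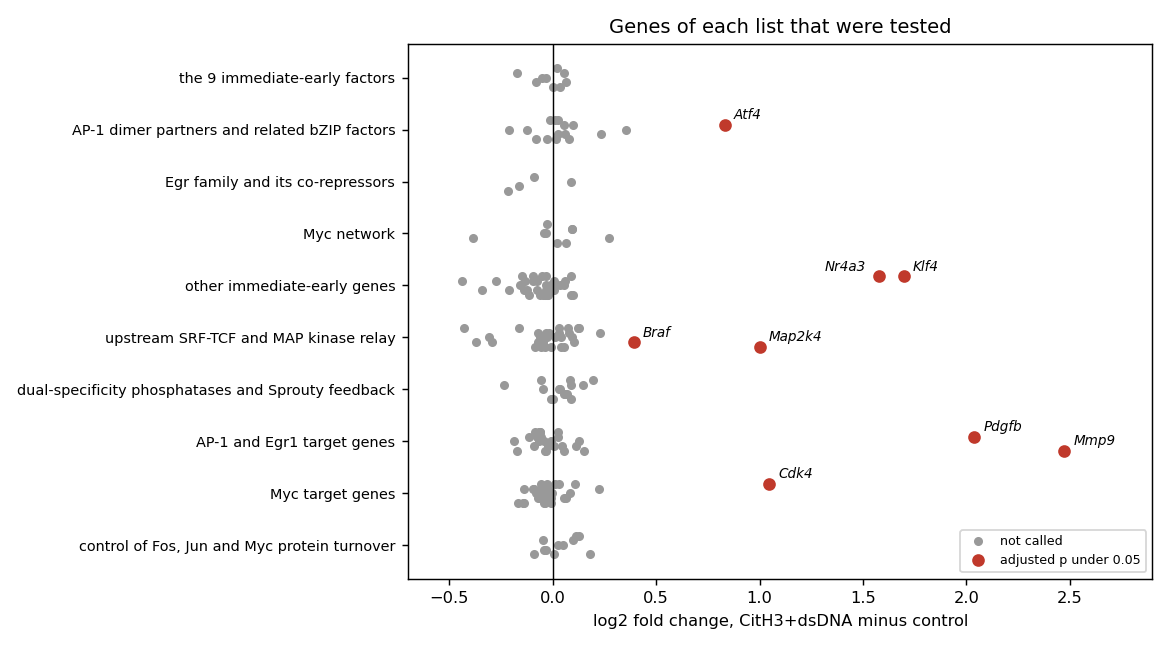
Log2 fold change, CitH3+dsDNA minus control (horizontal axis), of the tested genes reported here in the 9 factors and the 9 pathway lists (rows), with genes at an adjusted p-value under 0.05 in red and named. The called genes shown lie between 0.39 and 2.47, and none of them lies left of 0.

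Of 30 target genes of AP-1 and Egr1, Fosl1 included, 27 were tested, 3 rose and 0 fell, and the median was -0.034. Mmp9, the gelatinase whose promoter is a known AP-1 target, had 175, 180 and 179 counts after CitH3+dsDNA and 30, 38 and 30 in controls, with a log2 fold change of 2.47 (SE 0.15, edgeR adjusted p = 1.88e-07). Pdgfb, a smooth muscle mitogen and Egr1 target, had 89, 89 and 88 counts against 23, 22 and 21. Its log2 fold change was 2.04 (SE 0.19, edgeR adjusted p = 2.05e-05). The groups of both genes were well apart. The abundant targets Thbs1, Spp1 and Cd44, genes of matrix proteins and of a hyaluronan receptor, had log2 fold changes of 0.028, 0.044 and -0.011 and were not called.

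Of 31 Myc target genes 30 were tested, 1 rose and 0 fell. Cdk4, the cyclin D-dependent kinase, had 6600, 6720 and 6977 counts after CitH3+dsDNA and 3200, 3363 and 3454 in controls, and its log2 fold change was 1.05 (SE 0.036, edgeR adjusted p = 6.05e-10). The rest were not called. Of the 30, 22 had a negative log2 fold change, and the median was -0.030. An unadjusted p-value under 0.05 was given to 9 of the 30, Cdk4 among them, with 3 higher and 6 lower, beside the 13.9% of all genes. Ldha (log2 fold change -0.056), Eif4a1 (-0.093) and Ran (-0.043), genes of lactate production, translation and nuclear transport, were the most abundant of those not called. Of 13 genes that control the turnover of Fos, Jun and Myc proteins, 12 were listed and tested and 0 were called in edgeR, with 3 unadjusted p-values under 0.05 and a median of 0.036. Gsk3b, whose kinase marks Myc for degradation, had a log2 fold change of 0.13 (edgeR adjusted p = 0.276), and its relative Gsk3a had -0.045 (edgeR adjusted p = 0.658).

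**Figure D5:**
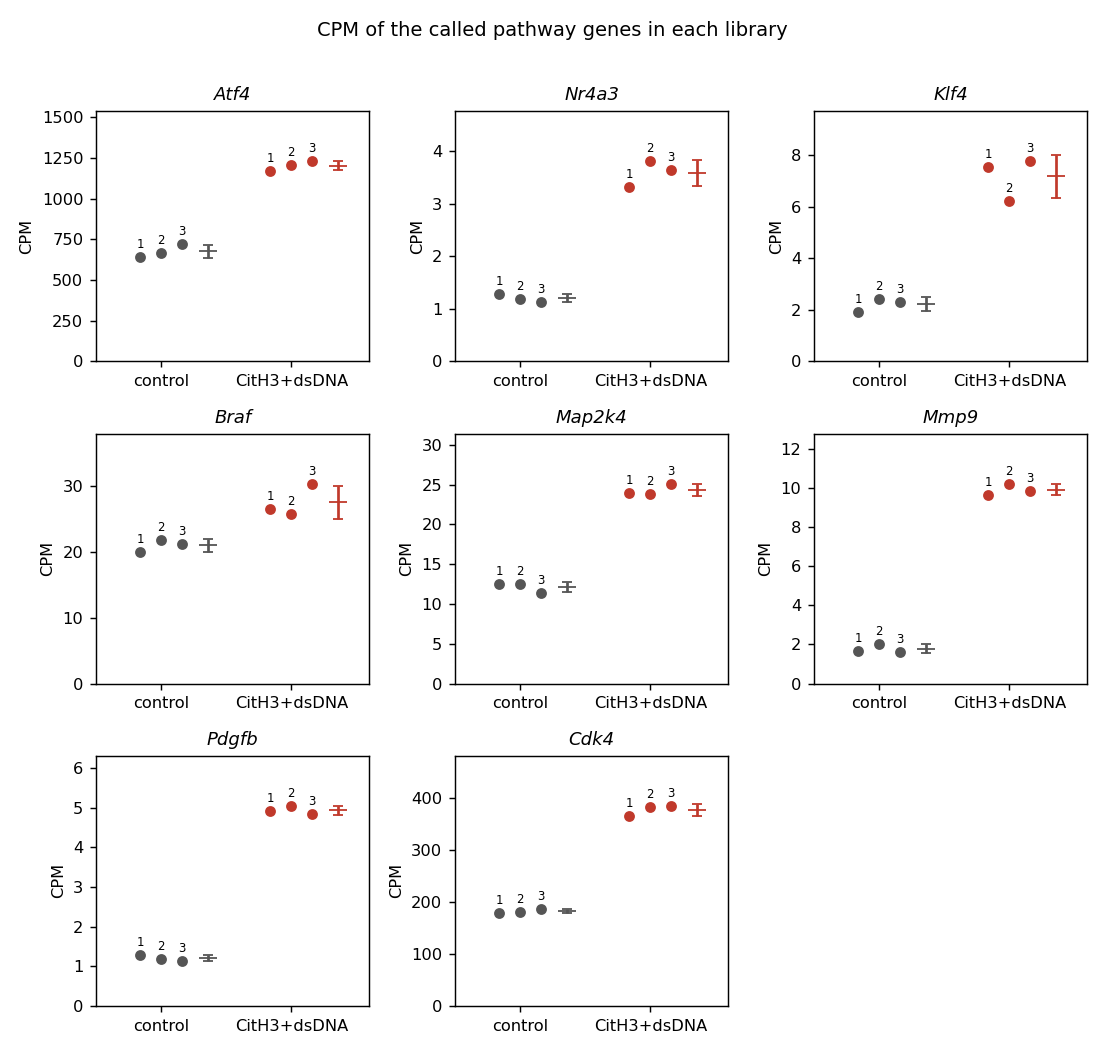
Expression of 8 called pathway genes in each library, in CPM after TMM scaling (vertical axis of each panel, starting at 0), with replicate numbers above the points and the mean with its SD at the right of each group. All CitH3+dsDNA points lie above all control points in each panel.

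Nr4a3 and Pdgfb had the same counts as each other in controls 1, 2 and 3 (23, 22 and 21), which are consecutive whole numbers. Such a run was found in neither group for the other called pathway genes and for the 9 factors. Some list genes that were not called also had such runs, and the share over all genes was not worked out. The part of the run in the 2 calls was not tested.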

How the data were processed

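RNA was sequenced from 3 CitH3+dsDNA and 3 control libraries, grouped by sample title. The authors made stranded mRNA libraries, aligned reads to Rnor6.0 with TopHat2 2.1.1, used HTSeq for counting and deposited raw, whole-number counts per gene. The submitters' processing notes also list Cufflinks 2.2.1. The strand setting of the counting is not given in the sources used here, so antisense or overlapping genes can share reads.

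After filterByExpr and TMM scaling, edgeR 4.0.16 (R 4.3.3) gave quasi-likelihood F tests, whose p-values were adjusted over 12591 genes (Benjamini-Hochberg, threshold 0.05). Standard errors and 95% intervals came from the unshrunken coefficient, the F statistic and its degrees of freedom. Alternatives used DESeq2 1.42.0, limma-voom (limma 3.58.1), other scalings and filters, robust dispersions, a replicate block, and fits without each library. Spread without each library was added after the counts had been seen.

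Members and lists were chosen with earlier results of these data known. The text names all members, the called genes of each pathway list, the 3 most abundant genes not called in it, and the 3 profiles nearest a member. Of the genes so named, 2 are counted in their lists but not reported here. Cell type markers are given by the counts of each list, and Acta2 alone was named, after its values were seen. Promoters came from RefSeq (GRCr8) and no coordinates of Rnor6.0 were used.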

Additional observations from a re-analysis of the deposited data

How the results depend on the processing

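In all 15 alternatives 0 of the 9 factors were called, and with at least 10 counts in every library Fos was not tested. The number with an unadjusted p-value under 0.05 was 0 to 2, the 2 being Fosl1 and Junb without control replicate 3. Fosl1, Junb and Jund kept a negative log2 fold change throughout. Egr1, at -0.00062, was at 0.019 with library size alone, 0.0090 with limma-voom, 3.08e-05 with at least 10 counts in every library and 0.0033 with a replicate block. With each library left out, the log2 fold change ran from -0.073 to 0.11 for Egr1, -0.21 to 0.31 for Fos, -0.081 to 0.024 for Fosb, -0.0049 to 0.039 for Fosl2, -0.062 to 0.097 for Jun and -0.050 to 0.12 for Myc. The cause was not tested.

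The number of called genes, 277, was 212 with a replicate block. Replicate numbers do not pair the libraries (correlations of deviations from the group means -0.0458, 0.00452 and 0.0355 across genes). With each library left out it ran from 164 to 357 (147 to 300 higher, 17 to 57 lower), the lowest without CitH3+dsDNA replicate 1, 184 without control replicate 1 and the highest without control replicate 3. The 33 lower genes became 58 with no filter and 50 with robust dispersions. Of the called pathway genes, all but Braf kept their call in all 15 alternatives. With each library left out the relay had 1 to 3 calls, the Myc targets 1 to 2 and the turnover list 0 to 1. With robust dispersions the Myc targets and the turnover list had 2 calls each, and with library size alone the turnover list had 1. Depth limits Fos most, at 7 to 15 counts per library.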
